A study of Mus musculus with 6 samples.

Results

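Chemokine ligands and receptors were examined in bulk RNA-sequencing of cultures labelled primary mouse skin endothelial cells (ECs). Members were all protein-coding genes whose symbols begin with Ccl, Cxcl, Ccr or Cxcr followed by a digit, together with Cx3cl1 and Ackr1 to Ackr4. This gave 64 of the 55487 gene identifiers counted, with 59 distinct symbols. Of these identifiers, 43 encode ligands and 21 encode receptors, and 7 are copies of Ccl19, Ccl21 and Ccl27 genes on unplaced scaffolds. The 3 matching pseudogenes, Ccl19-ps1, Ccl19-ps3 and Cxcl11, which the annotation lists as a polymorphic pseudogene, were left out, and none had more than 6 counts in a sample.

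The 6 samples came from cells of C57BL/6 mice aged 2 to 3 months, without any allele or other agent named in the labels. Skin of 4 to 6 mice was digested with collagenase for an isolation, and cells were collected with beads against CD31, the surface protein encoded by Pecam1. After collection, 3 cultures received normal glucose (5 mmol/L) and 3 received high glucose (20 mmol/L) for 48 hours, a comparison meant to model hyperglycemia. No osmotic control was among these samples, and the labels do not say whether the replicates came from separate isolations, so P values measure the spread between these samples, which may be technical.

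Total counts lay between 120192466 and 146881356 per sample, at which a floor of 3 counts corresponds to 0.0204 to 0.0250 CPM (counts scaled to a common library total). The labelled cell type was checked against marker genes. Pecam1 had 12 to 19 counts in normal and 9 to 18 in high glucose, while Tie1, Cldn5 and Emcn had at most 9 counts in any sample. The 12 endothelial markers summed to 23.9 to 25.7 CPM in normal and 24.7 to 25.8 in high glucose. The 8 fibroblast markers, among them Col1a1, Col3a1 and Pdgfra, summed to 37720 to 40870 CPM in normal and 69600 to 74560 in high glucose, with 7 called higher and Thy1 called lower. Among the endothelial markers with more counts, Egfl7 had 1113 to 1464 counts per sample, Kdr 576 to 777, Plvap 586 to 833 and Cdh5 91 to 242. Cdh5 fell by 1.03 and Egfl7 by 0.23, and Plvap, Tek and Erg rose by 0.44, 0.66 and 1.45 (adjusted P = 1.4e-04, 0.0346, 0.00502, 0.00219 and 0.0453). The rise of Erg rests on few counts, 5, 8 and 2 in normal and 14, 15 and 12 in high glucose. Pecam1, the gene of the protein used for collection, was nearly absent and other endothelial genes were low beside the fibroblast genes, so the cells are called cultures in what follows. In such bulk samples, fewer cells of a type and less RNA per cell cannot be told apart.

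Chemokines are small secreted proteins that guide migrating leukocytes, and they are classed by the spacing of their first cysteines into CC, CXC and CX3C families. Most act on G protein-coupled receptors on leukocytes, so that CCL2 recruits monocytes through CCR2, CXCL1 and CXCL5 recruit neutrophils through CXCR2, and CXCL12 retains or attracts cells that carry CXCR4. Atypical receptors (ACKR1 to ACKR4) bind chemokines without G protein signaling and move or remove them, and in skin both vessel walls and stromal cells contribute to the chemokines that immune cells meet.

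RefSeq promoter windows (GRCm38.p6, 250 bases before to 50 bases after the transcription start) were at hand for 43 member symbols, among them 14 of the 18 members that were called, without Ccl2, Ccl7, Ccl11 and Cxcl5. The 150 bases upstream of the start are shown 5′ to 3′ for 3 members that fell and 3 that rose, namely ligands from the chromosome 11 clusters (Ccl12, Ccl8 and Ccl9), Cxcl12, which had the most counts, and the classical inflammatory promoters Cxcl1 and Cxcl10. Capitals mark matches, on either strand, to the NF-kB pattern (GGG, any 5 bases, then CC) or the AP-1 pattern TGANTCA. The stretches lie at chr11:82101695-82101844 (plus strand, Ccl12), chr11:82115035-82115184 (plus, Ccl8), chr5:92348890-92349039 (minus, Cxcl10), chr11:83578637-83578786 (minus, Ccl9), chr6:117168385-117168534 (plus, Cxcl12) and chr5:90891095-90891244 (plus, Cxcl1).
Ccl12: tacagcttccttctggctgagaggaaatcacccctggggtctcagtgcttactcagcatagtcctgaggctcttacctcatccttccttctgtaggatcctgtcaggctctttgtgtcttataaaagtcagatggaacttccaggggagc
Ccl8: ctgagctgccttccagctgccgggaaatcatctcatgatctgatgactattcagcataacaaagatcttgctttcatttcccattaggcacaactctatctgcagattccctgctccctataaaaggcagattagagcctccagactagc
Cxcl10: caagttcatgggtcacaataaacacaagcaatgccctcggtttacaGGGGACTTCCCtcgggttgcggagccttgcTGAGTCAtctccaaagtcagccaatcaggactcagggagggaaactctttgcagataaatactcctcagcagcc
Ccl9: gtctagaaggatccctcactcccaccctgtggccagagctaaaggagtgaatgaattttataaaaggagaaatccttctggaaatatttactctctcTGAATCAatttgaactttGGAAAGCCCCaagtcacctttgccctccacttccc
Cxcl12: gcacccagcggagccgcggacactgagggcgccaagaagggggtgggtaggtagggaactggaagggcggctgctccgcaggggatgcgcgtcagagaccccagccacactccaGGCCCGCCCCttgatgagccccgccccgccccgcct
Cxcl1: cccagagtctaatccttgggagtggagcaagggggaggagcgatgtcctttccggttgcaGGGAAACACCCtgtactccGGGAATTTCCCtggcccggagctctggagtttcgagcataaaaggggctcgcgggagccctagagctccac

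The letters of the Ccl12 and Ccl8 windows matched none of the patterns. The Cxcl10 window held 3 matches to the NF-kB pattern, some of which overlap one another, and 1 to TGANTCA. It held 1 to the interferon response pattern (GAAA, any 2 bases, then GAAA again), 213 bases before the start and outside the printed stretch. The NF-kB match of Cxcl10 farthest from the start begins before the printed stretch and is not marked in it. Over full windows, the NF-kB pattern was found in 7 of the 9 windows of members that rose and in 1 of the 5 at hand of the 8 members that fell, the interferon response pattern in 0 and 2, and the AP-1 pattern in 2 and 1. In the 32544 distinct windows of all genes these patterns occurred in 51.0%, 3.45% and 7.79%, so the NF-kB pattern is common in promoters at large. A stricter NF-kB form, with ACTTT as the 5 middle bases and found in 0.157% of all windows, was in none of the 14. A match describes the letters in a window and says nothing of binding in these cultures.

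Of the 64 members, 33 passed the filter on low counts and 31 did not. Compared with normal glucose, 18 members passed an adjusted P of 0.05 when all 19015 tested genes were compared by the quasi-likelihood method of edgeR, 10 of them higher and 8 lower in high glucose. Among all tested genes, 31.4% were called, 16.9% higher and 14.5% lower. With a log2 fold change of at least 1 in either direction, 3 members were higher (Ccl9, Cxcl12 and Ackr2) and 5 lower (Ccl12, Ccl11, Ccl8, Ccl2 and Ccl7), against 4.93% of all tested genes. The groups did not overlap in 19 members, the 18 called ones and Cxcr6, against 46.4% of all tested genes (25.1% higher and 21.3% lower). The median log2 fold change of the tested members was 0.01, that of all tested genes also 0.01. Among called genes only, the median absolute log2 fold change was 0.90 for members and 0.42 for all genes.

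**Figure D1:**
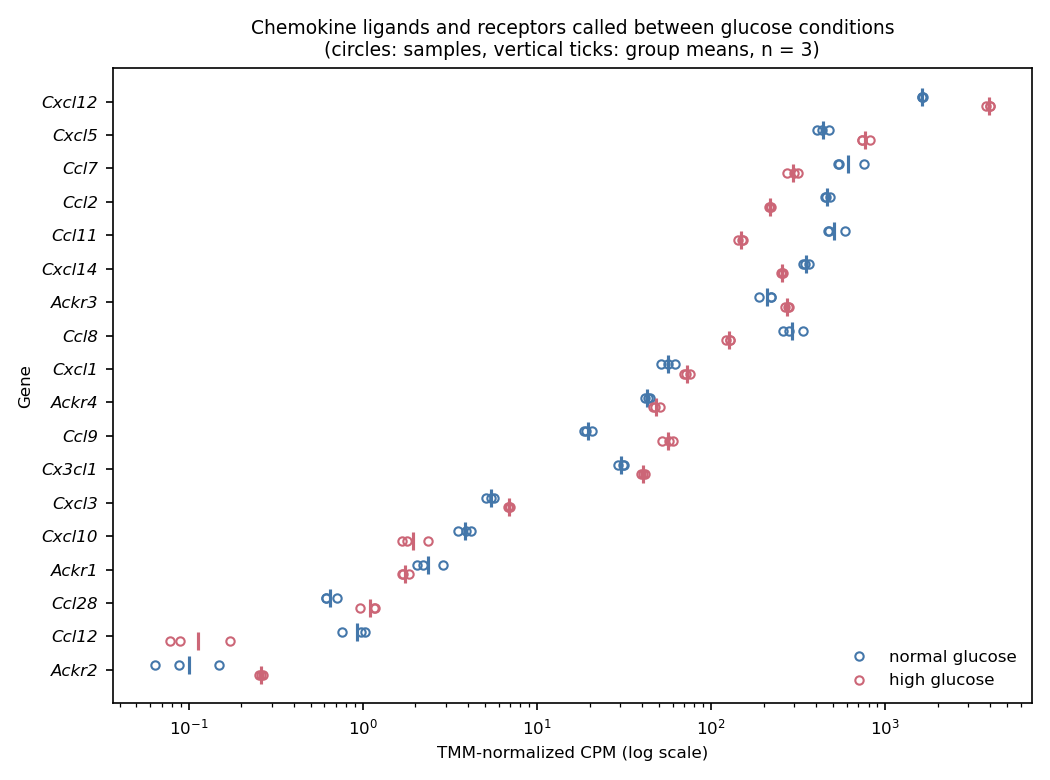
Normalized levels in CPM (log scale, x axis) of the 18 called members (y axis), with a circle for each sample and a vertical tick at each group mean (n = 3 per group). Group means run from 0.0999 CPM for Ackr2 in normal glucose to 3923 CPM for Cxcl12 in high glucose, and no circle of one group lies inside the range of the other for any gene shown.

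**Figure D2:**
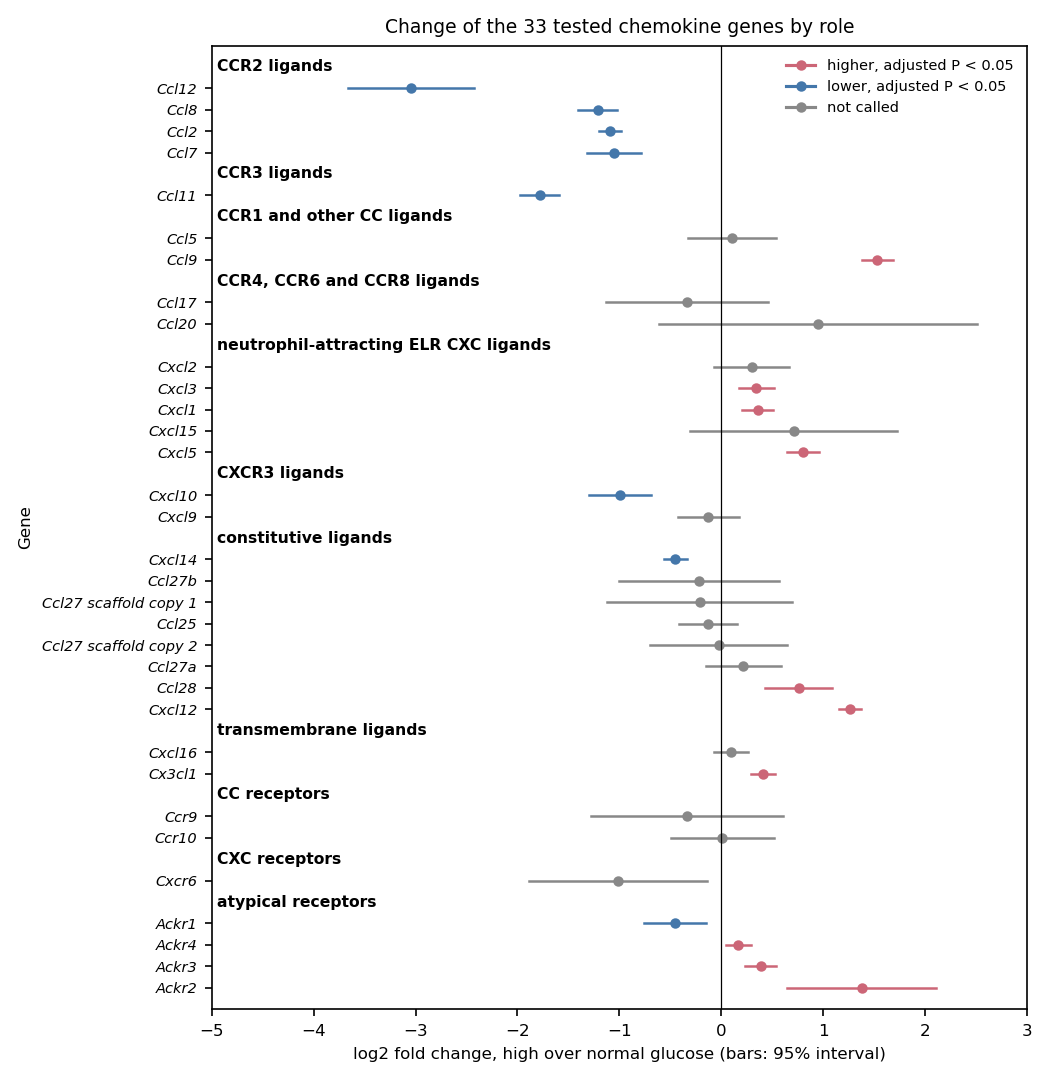
The log2 fold change of high over normal glucose (x axis) for the 33 tested members, ordered by role, with bars for the 95% interval. All 4 CCR2 ligands and the CCR3 ligand Ccl11 lie left of 0, Ccl9 and Cxcl12 lie at 1.53 and 1.27, and the members drawn in gray were not called.

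All 4 ligands of CCR2, the monocyte receptor, fell in high glucose, as did Ccl11 (eotaxin), the ligand of the eosinophil receptor CCR3. Ccl2 (MCP-1, ENSMUSG00000035385), the main monocyte attractant, had 480.4, 451 and 454 CPM in normal and 213, 217 and 220.0 in high glucose. The replicates of each group were tightly grouped and far apart from those of the other, at means of 462 ± 16.2 and 217 ± 3.44 CPM (SD, n = 3). Ccl2 fell by 1.09 on the log2 scale (SE 0.0506, adjusted P = 1.9e-07).

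Ccl7 (MCP-3, ENSMUSG00000035373), which also acts on CCR1 and CCR3, had 751, 545 and 538 CPM in normal and 271, 314 and 298 in high glucose. Replicate 1 of normal glucose stood above the other cultures, and all 3 high-glucose values lay below the lowest control. Ccl7 fell by 1.06 (SE 0.119, adjusted P = 8.4e-05). Ccl8 (MCP-2, ENSMUSG00000009185), which in mice also acts on CCR8, had 336, 259.8 and 279 CPM in normal and 121, 128 and 128 in high glucose, again with replicate 1 highest among the controls. Its log2 fold change was -1.21 (SE 0.0867, adjusted P = 3.7e-06).

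Ccl11 (ENSMUSG00000020676) had 584, 477 and 468 CPM in normal and 142, 152 and 149.8 in high glucose. Its groups were separated by more than their own width, and it fell by 1.78 on the log2 scale (SE 0.0843, adjusted P = 2.2e-07). Ccl12 (MCP-5, ENSMUSG00000035352), a mouse CCR2 ligand, was expressed at a far lower level per kb of exon, with 128, 138 and 97 counts in normal and 11, 20 and 12 in high glucose. It fell by 3.04 (SE 0.279, adjusted P = 2.1e-05), which was rank 20 from the lowest among the 19015 tested genes, and its interval was -3.66 to -2.42. Of the others listed as CCR3 ligands, Ccl26 was at 0 in all samples and Ccl24 had at most 6 counts, while Ccl5 and Ccl28, which also act on CCR3, are described with their own groups.

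These 5 genes lie side by side on mouse chromosome 11 (GRCm38), all on the plus strand: Ccl2 at 82035571 to 82037453, Ccl7 at 82045712 to 82047525, Ccl11 at 82057823 to 82062955, Ccl12 at 82101845 to 82103400 and Ccl8 at 82115185 to 82116799. Ccl1, annotated beyond Ccl8 at 82176657 to 82305690, had 0 counts in every sample. None of the 4 nearest tested protein-coding genes outside the cluster was called lower. Myo1d ends at 80780025 and Tmem98 at 80822033, and Tmem132e begins at 82388900 and Cct6b at 82719250. No other protein-coding gene between Tmem98 and Ccl2 or between Ccl1 and Tmem132e was tested, so these values do not show where the fall ends. Myo1d and Tmem98 on the proximal side had log2 fold changes of -0.06 and -0.07 (adjusted P = 0.489 and 0.398), and on the distal side Tmem132e rose by 0.38 (adjusted P = 0.0373) while Cct6b had a value of 0.51 (adjusted P = 0.0854). No 75-base stretch of the transcripts of Ccl2, Ccl7, Ccl8, Ccl11 or Ccl12 occurs in another gene of the annotation.

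**Figure D3:**
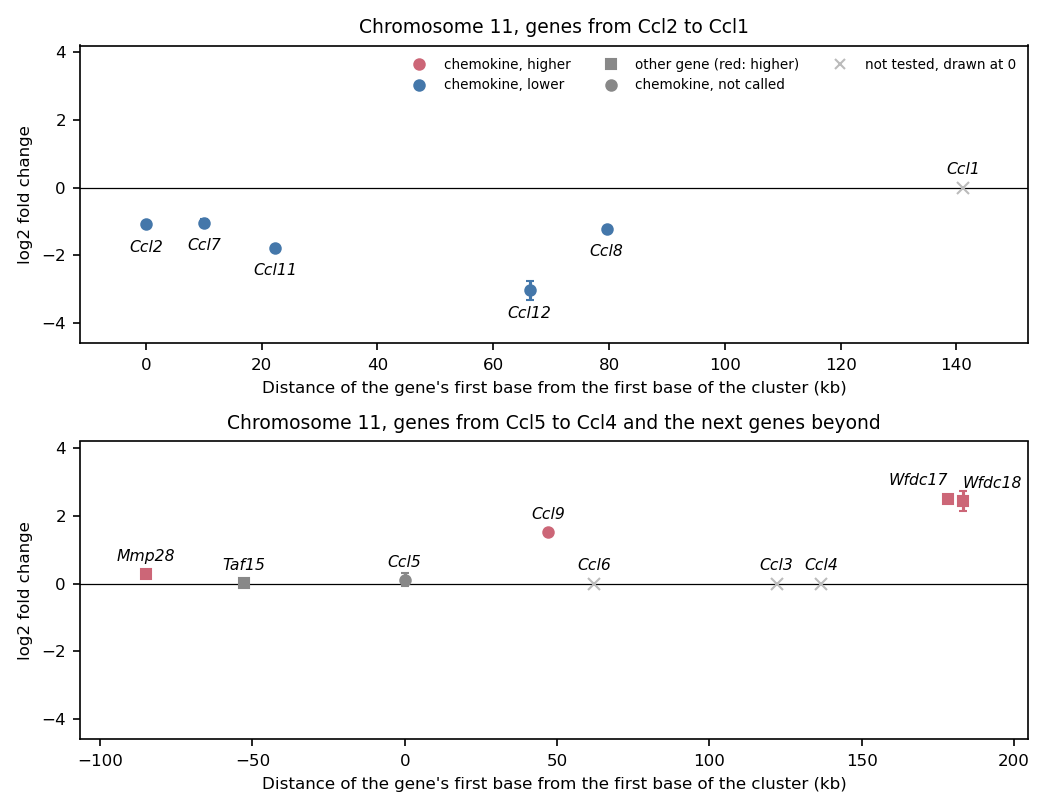
The log2 fold change (y axis, bars show the SE) of genes in 2 chemokine clusters of chromosome 11 against the distance of each gene's first base from the first base of the cluster in kb (x axis). In the upper panel 5 neighboring chemokines are lower in high glucose, by 1.06 to 3.04, and in the lower panel Ccl9 is higher between untested neighbors and Ccl5, with Wfdc17 and Wfdc18 higher beyond Ccl4.

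A second CC cluster on chromosome 11, from Ccl5 to Ccl4 and 138.9 kb long, held the CC ligand with the largest rise. Ccl9 (MIP-1 gamma, ENSMUSG00000019122, 83572919 to 83578636, minus strand), a CCR1 ligand, had 20.6, 19.2 and 18.6 CPM in normal and 52.0, 60.1 and 56.9 in high glucose. Every high-glucose culture was well above every control, and Ccl9 rose by 1.53 (SE 0.0682, adjusted P = 1.5e-07). Ccl5 (RANTES), a ligand of CCR1 and CCR3, had 71, 78 and 68 counts in normal and 93, 51 and 91 in high glucose, with the high-glucose values on both sides of the controls (log2 fold change 0.11, interval -0.32 to 0.54, adjusted P = 0.712). Ccl6 had 4 to 16 counts per sample, and Ccl3 and Ccl4 were at 0 in all 6. Next to the cluster, Wfdc17 and Wfdc18 rose by 2.51 and 2.44 (adjusted P = 3.0e-08 and 1.6e-04), Mmp28 rose by 0.27 (adjusted P = 0.0472), and Taf15 had a value of 0.01 (adjusted P = 0.963).

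Ccl1, Ccl17, Ccl20 and Ccl22, ligands of CCR4, CCR6 or CCR8 on T cells and dendritic cells, gave no call, and Ccl1 and Ccl22 were at 0. Ccl17 had 12 to 35 counts per sample (log2 fold change -0.34, interval -1.14 to 0.46, adjusted P = 0.512). Ccl20 had 0 to 16 counts, with a value of 0.95 and an interval of -0.61 to 2.52 (adjusted P = 0.335). No difference in Ccl17 or Ccl20 was detected, and both intervals leave a rise or a fall open.

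Cxcl12 (SDF-1, ENSMUSG00000061353, chromosome 6, 117168535 to 117181367), the ligand of CXCR4 and of the atypical receptor ACKR3, had the most counts of any member. It had 1644, 1629 and 1621 CPM in normal and 3791, 3980.0 and 3999 in high glucose. The 3 cultures of each group were nearly alike, at 1631 ± 12.0 and 3923 ± 115 CPM (SD, n = 3), and Cxcl12 rose by 1.27 on the log2 scale (SE 0.0495, adjusted P = 6.8e-08). Cxcl14 (ENSMUSG00000021508, chromosome 13), a ligand made constitutively in skin, changed the other way, with 347, 335 and 362 CPM in normal and 252, 258 and 254 in high glucose. All high-glucose values lay below the lowest control, and Cxcl14 fell by 0.45 (SE 0.0507, adjusted P = 8.7e-05).

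Per kb of exon, the other constitutive ligands were far scarcer. Ccl28, a mucosal ligand of CCR10 and CCR3, had 77, 101 and 78 counts in normal and 166, 134 and 130 in high glucose, without overlap, and rose by 0.76 (SE 0.149, adjusted P = 0.00318). Ccl25, the ligand of CCR9, had 390 to 605 counts per sample and a log2 fold change of -0.13 (interval -0.42 to 0.16, adjusted P = 0.488). Elavl1 overlaps 204 of the 7445 exonic bases of Ccl25 on the opposite strand. Ccl27a, a CCR10 ligand of keratinocytes, had 125 to 194 counts and a value of 0.22 (interval -0.15 to 0.58, adjusted P = 0.347). Reads of Ccl27a, Ccl27b and the Ccl27 copies on scaffolds are uncertain, since 33.3% of the 75-base stretches of Ccl27a and 98% of those of Ccl27b also occur in other genes. Ccl27b and both tested scaffold copies had log2 fold changes of -0.22, -0.21 and -0.02, all not called.

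The ELR chemokines, which carry the residues Glu-Leu-Arg before the first cysteine and attract neutrophils through CXCR2, were higher in 3 of 5 members. Cxcl5 (ENSMUSG00000029371) had 472, 434 and 405 CPM in normal and 733, 819 and 732 in high glucose, and rose by 0.80 (SE 0.0703, adjusted P = 1.5e-05). Cxcl1 (ENSMUSG00000029380), also called KC, had 61.7, 56.3 and 51.5 CPM in normal and 71.5, 70.1 and 75.6 in high glucose. The groups were separate in both genes, and the rise of Cxcl1 was smaller, at 0.36 (SE 0.0694, adjusted P = 0.00304). Cxcl3 had 5.69, 5.44 and 5.12 CPM in normal and 6.78, 6.97 and 6.92 in high glucose, a rise of 0.35 (SE 0.0791, adjusted P = 0.00753).

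Cxcl2 (MIP-2) had 100, 91 and 74 counts in normal and 120, 89 and 117 in high glucose, so that the groups overlapped in counts (log2 fold change 0.30, interval -0.07 to 0.67, adjusted P = 0.196). Cxcl15 (lungkine) had 5 to 19 counts per sample and a value of 0.71 (interval -0.30 to 1.73, adjusted P = 0.267). The 5 genes form a cluster of 146.6 kb on chromosome 5, beginning with Cxcl5 at 90759360. Within it lies Ppbp, a related platelet chemokine outside the symbol rule, which fell by 0.65 (adjusted P = 0.0240), so the genes of the cluster did not all move one way. Cxcl2 and Cxcl3 share 4.57% and 2.78% of their 75-base stretches with each other.

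Cxcl10 (IP-10, ENSMUSG00000034855), an interferon-induced ligand of the T cell receptor for chemokines CXCR3, fell. It had 4.15, 3.52 and 3.88 CPM in normal and 1.79, 2.35 and 1.68 in high glucose, with no overlap, and its log2 fold change was -0.99 (SE 0.137, adjusted P = 3.4e-04). Cxcl9 (MIG), the neighboring CXCR3 ligand, had 1.82, 2.12 and 1.89 CPM in normal and 1.54, 2.09 and 1.73 in high glucose. These values overlapped, and the log2 fold change of -0.13 had an interval of -0.43 to 0.17 (adjusted P = 0.516). Art3, whose gene spans Cxcl10 and overlaps 133 of its 2252 exonic bases on the opposite strand, rose by 0.64 (adjusted P = 2.3e-05), opposite to Cxcl10, and since the sources do not say that strand was used in counting, reads over the overlap cannot be assigned to either gene.

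Both transmembrane chemokines, which ADAM proteases can shed from the cell surface, were expressed. Cx3cl1 (fractalkine), known from activated endothelium, had 29.0, 31.0 and 31.4 CPM in normal and 39.4, 41.4 and 40.7 in high glucose. Its groups were clearly apart, and it rose by 0.41 (SE 0.0538, adjusted P = 2.4e-04). Cxcl16, the ligand of CXCR6, had 12.0 to 14.4 CPM in normal and 13.98 to 14.65 in high glucose, which overlapped (log2 fold change 0.10, interval -0.07 to 0.27, adjusted P = 0.342), and 552 of its 3021 exonic bases overlap Zmynd15 on the opposite strand.

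Levels of different genes were compared as CPM per kb of exon, with the exons of all annotated transcripts of a gene joined. This length can exceed that of the transcripts expressed, and levels of such genes would then be understated. In normal glucose Ccl7 stood first among the chemokines at 763 CPM per kb, followed by Ccl8 at 571, Ccl11 at 471, Ccl2 at 406, Cxcl5 at 234, Cxcl12 at 199.5 and Cxcl14 at 190.4. In high glucose the order had turned, with Cxcl12 first at 479.8 CPM per kb, Cxcl5 at 409, Ccl7 at 367, Ccl8 at 246, Ccl2 at 190.4, Cxcl14 at 139.5 and Ccl11 at 137. Among the 14808 tested protein-coding genes, Ccl7 had rank 28 in normal and 90 in high glucose on this scale, Ccl8 ranks 44 and 141, and Ccl11 ranks 64 and 282. Cxcl12 had rank 187 in normal and 58 in high glucose, and Cxcl5 ranks 156 and 72.

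The makeup of the ligand counts also shifted. These shares are not corrected for transcript length, so long transcripts weigh more in them than in the levels per kb given above. Cxcl12 has 8176 exonic bases, whereas Ccl2, Ccl7, Ccl8, Ccl11 and Ccl12 have 511 to 1138. Ccl2, Ccl7, Ccl8, Ccl11 and Ccl12 together held 45.2%, 40.6% and 40.8% of all ligand counts in normal and 13.1%, 13.4% and 13.3% in high glucose. Cxcl12 held 34.5%, 38.2% and 38.0% in normal and 66.3%, 65.5% and 66.8% in high glucose. These shares did not overlap between groups and differed little within them, and each comparison gave P = 0.1 in the exact two-sided permutation test, the lowest value that 3 samples against 3 can give. The shares are not independent of each other, because they sum to the whole. All ligands together made up 0.461% ± 0.0307 of all counts in normal and 0.569% ± 0.0149 in high glucose (SD, n = 3, exact permutation P = 0.1).

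Ratios of counts within a sample do not depend on the scaling between libraries. The ratio of Cxcl12 to Ccl2 counts was 3.42, 3.61 and 3.57 in normal and 17.8, 18.3 and 18.2 in high glucose. The ratio of Ccl9 to Ccl7 counts was 0.0275, 0.0352 and 0.0346 in normal and 0.192, 0.191 and 0.191 in high glucose. Within the CCR2 ligands the ratio of Ccl7 to Ccl2 did not separate the groups, at 1.56, 1.21 and 1.18 in normal and 1.27, 1.45 and 1.35 in high glucose (exact permutation P = 0.8), whereas that of Ccl11 to Ccl2 was 1.21, 1.06 and 1.03 in normal and 0.666, 0.703 and 0.681 in high glucose (exact permutation P = 0.1).

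**Figure D4:**
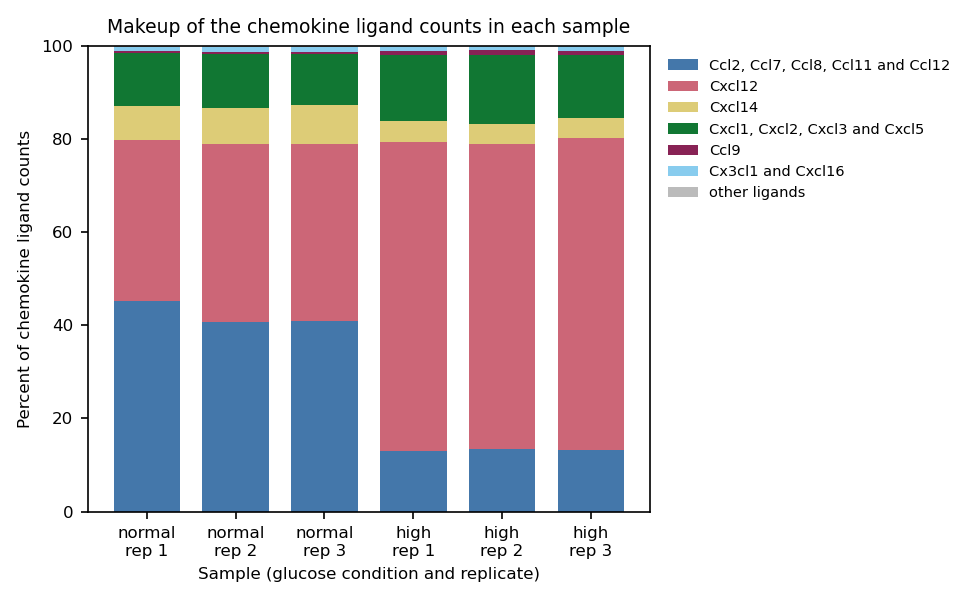
The percent of all chemokine ligand counts (y axis), not corrected for transcript length, held by each gene or group of genes in each of the 6 samples (x axis). The CCR2 and CCR3 ligands at the bottom shrink from 40.6% or more in each normal-glucose sample to 13.4% or less in high glucose, and Cxcl12 above them grows to 65.5% or more.

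Signaling receptors were nearly absent, although the ligands of several were abundant. Of the 17 CC and CXC receptor genes, 3 passed the filter and none of these was called. Ccr2 had 0 counts in all 6 samples, which allows a level of up to 0.0204 to 0.0250 CPM in counting error alone, and Cxcr2 and Cxcr3 were also at 0. Cxcr4, the receptor of Cxcl12, had 2 counts in 1 control and 0 in the other samples. Ccr1 had 6, 7 and 4 counts in normal and 0 in each high-glucose sample, under the filter. Fitted without that filter, it was called lower (adjusted P = 0.0274), at 7 counts or fewer per sample. Ccr10 had 88, 132 and 121 counts in normal and 153, 66 and 127 in high glucose (log2 fold change 0.01, interval -0.49 to 0.52, adjusted P = 0.975). Cxcr6, the receptor of Cxcl16, had 24, 18 and 13 counts in normal and 11, 9 and 7 in high glucose. All high-glucose values were below the controls, but its log2 fold change of -1.01 (interval -1.88 to -0.14) was not called (adjusted P = 0.0750). Ccr9 had 8 to 20 counts per sample and was not called (adjusted P = 0.592), with 1932 of its 10260 exonic bases covered by another gene on the opposite strand.

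All 4 atypical receptors passed the filter, with 3 called higher and Ackr1 lower. Ackr3 (CXCR7, ENSMUSG00000044337), which binds and removes CXCL12, was the receptor with the highest level per kb of exon, with 187, 219 and 221 CPM in normal and 277, 266 and 279 in high glucose. The groups did not overlap, and Ackr3 rose by 0.39 (SE 0.0678, adjusted P = 0.00158), less than its ligand, so that the ratio of Cxcl12 to Ackr3 counts went from 7.85 ± 0.804 to 14.3 ± 0.638 (SD, n = 3, exact permutation P = 0.1). Ackr2 (D6, ENSMUSG00000044534), which degrades inflammatory CC chemokines including CCL2 and CCL11, had 11, 9 and 19 counts in normal and 36, 30 and 36 in high glucose. It rose by 1.38 (SE 0.328, adjusted P = 0.00938), at a level of 0.0999 CPM in normal and 0.260 in high glucose.

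The 2 remaining calls were near the threshold. Ackr1 (DARC, ENSMUSG00000037872), a receptor of venular endothelium that carries many inflammatory chemokines, had 2.87, 2.21 and 2.05 CPM in normal and 1.69, 1.68 and 1.83 in high glucose, a fall of 0.45 (SE 0.138, adjusted P = 0.0301). The call was lost without replicate 1 of normal glucose (log2 fold change -0.31, adjusted P = 0.0597) and without each of the high-glucose replicates 1, 2 and 3 (adjusted P = 0.0848, 0.0807 and 0.0530), and 361 of the 1405 exonic bases of Ackr1 overlap Cadm3 on the same strand. Ackr4 (CCRL1, ENSMUSG00000079355), which removes CCL19, CCL21 and CCL25, had 41.5, 43.1 and 44.3 CPM in normal and 46.5, 47.7 and 50.6 in high glucose, a rise of 0.17 (SE 0.0547, adjusted P = 0.0401). That call was lost when any 1 of the 6 samples was left out (adjusted P = 0.0728 to 0.265) and under library size scaling (log2 fold change 0.05, adjusted P = 0.479), and Acad11 overlaps 479 of its 5380 exonic bases on the opposite strand.

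**Figure D5:**
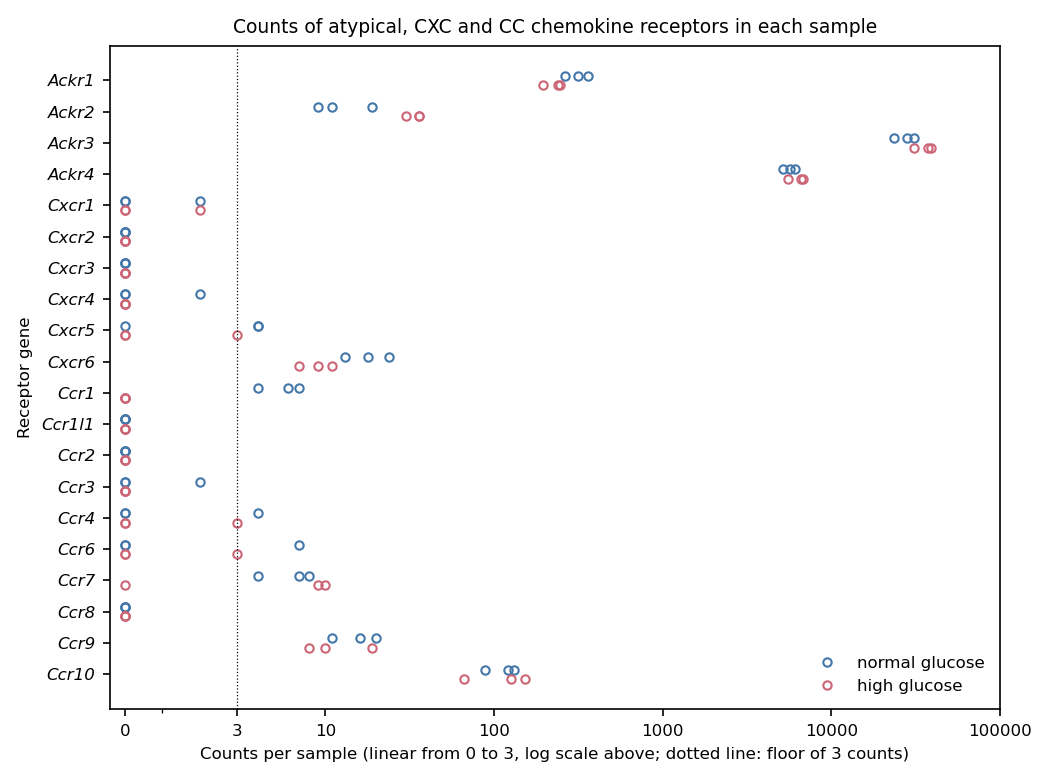
Counts per sample (x axis, linear from 0 to 3 and logarithmic above, with a dotted line at the floor of 3 counts) of the 4 atypical and 16 of the 17 signaling receptor genes (y axis), 1 circle per sample. Ackr3 and Ackr4 have at least 5191 counts in each sample, whereas Ccr1l1, Ccr2, Ccr8, Cxcr2 and Cxcr3 are at 0 throughout.

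The 31 members that did not pass the filter were set apart. No count above 16 occurred among them, and 12 were at 0 in every sample, namely Ccl1, Ccl3, Ccl4, Ccl22, Ccl26, both copies of Ccl21a, Ccr1l1, Ccr2, Ccr8, Cxcr2 and Cxcr3. A further 9 had 1 to 3 counts at most, among them Ccr3, Cxcr1, Cxcr4, the scaffold copy of Ccl19, the 3 copies of Ccl21b and Ccl21c. The other 10, Ccl6, Ccl19, Ccl24, Ccr1, Ccr4, Ccr6, Ccr7, Cxcl13, Cxcl17 and Cxcr5, exceeded 3 counts in some sample. Among these, Ccr7 had 7, 8 and 4 counts in normal and 10, 0 and 9 in high glucose, and Cxcl13, the B cell attractant, had 12, 0 and 10 in normal and 0, 5 and 2 in high glucose. In the fit without the filter, 19 of the 31 could be fitted and 1, Ccr1, was called.

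Of 60 accessory genes of the chemokine system, 54 were tested, 17 were higher and 7 were lower, with a median log2 fold change of 0.12, beside 16.9% higher and 14.5% lower among all tested genes. Among 15 receptors and adaptors through which cytokines or microbial products induce chemokine genes, 8 were higher and 1 was lower. Il6st (gp130), the shared signaling chain of IL-6 family cytokines, had 824 ± 88.1 CPM in normal and 1954 ± 34.4 in high glucose (SD, n = 3) and rose by 1.24 on the log2 scale (adjusted P = 1.1e-06). Among 13 genes of ligand processing and presentation, 6 were higher and 3 lower, and the gelatinase Mmp9 fell from 2.54 to 1.13 CPM (log2 fold change -1.16, adjusted P = 6.4e-05). Of 19 signal transduction genes 16 were tested, with 2 higher and 1 lower. Of 13 relatives outside the symbol rule 10 were tested, with 1 higher and 2 lower, and Cd74, a receptor of MIF, rose from 0.281 to 0.615 CPM (log2 fold change 1.13, adjusted P = 0.00298).

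Summed markers of fibroblasts, of myeloid cells and of mast cells and neutrophils differed between the groups without overlap. The same held for 19 of the 33 tested chemokine members, against 46.4% of all tested genes. Beside the fibroblast rise given above, 10 markers of macrophages and other myeloid cells summed to 17.5 to 19.7 CPM in normal and 26.9 to 27.9 in high glucose, of which Cd14 rose by 1.16 (adjusted P = 5.9e-07), while Csf1r and Cd68 fell by 0.73 and 0.46 (adjusted P = 0.00102 and 0.0463). Tyrobp was at 0, Adgre1 had at most 3 counts, and Ptprc had 16 counts in 1 control and 0 elsewhere. Other markers of this list had more, with 364 to 795 counts per sample for Csf1r, 192 to 256 for Lyz2 and 114 to 212 for Cd68. Mast cell and neutrophil markers summed to 6.33 to 7.42 CPM in normal and 2.15 to 2.69 in high glucose, nearly all of it S100a8, which fell by 1.496 (adjusted P = 5.1e-06), with S100a9 and Mcpt4 at 0. Markers of pericytes and smooth muscle summed to 904 to 989.8 CPM in normal and 866 to 925 in high glucose, with 1 of 6 higher and 3 lower. The lymphatic endothelial markers summed to 6.69 to 7.89 CPM in normal and 7.78 to 8.65 in high glucose, those of T, B and NK cells to 0.0781 to 0.275 and 0.200 to 0.247, and those of keratinocytes to 2.09 to 2.97 and 2.23 to 2.45. The keratinocyte sum was mostly Krt10, while the basal keratin Krt5 had 2, 2 and 2 counts in normal and 23, 12 and 14 in high glucose, a rise of 2.95 (adjusted P = 0.00148), and Krt14 had 2, 0 and 0 in normal and 35, 9 and 31 in high glucose. The part of such differences in the chemokine results was not tested.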

How the data were processed

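The authors trimmed reads with Trimmomatic, aligned them to GRCm38 (mm10) with HISAT2, counted reads per gene with StringTie and deposited whole-number counts without normalization. Tool versions and the use of strand or read pairs in counting are not given in the sources used here, and floors cover counting error only. The labels name DNBSeq and the study's methods HiSeq for sequencing. Columns named Control and Hi-Glu were taken as normal and high glucose with the replicate number in the name.

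Symbols, positions and exons came from GENCODE M21 (GRCm38), and 55227 of 55487 identifiers had a symbol. Those without one held 0.00694% of counts. Low genes were removed by edgeR 4.0.16 (R 4.3.3) with filterByExpr at a minimum of 10 and a total of 15 counts, followed by TMM normalization, quasi-likelihood test of high against normal glucose over all 6 samples, and Benjamini-Hochberg adjustment over the 19015 genes kept, called at 0.05 without a minimum fold. TMM factors were 0.954 to 1.05 and the biological coefficient of variation 8.44%. CPM values are TMM-normalized, standard errors and 95% intervals come from the same test and include the spread between samples, and 75-base stretches were compared between annotated transcripts. On simulated counts for 19015 genes with 200 changed, by small and large amounts, the fit called 57.5% of the changed genes and 7 unchanged ones. In the data a far larger part of the genes was called (31.4%), so these simulated rates do not carry over to the reported calls. DESeq2 1.42.0, other tests, normalizations, filters and thresholds, halved counts, the replicate block and each sample left out were alternatives. Every member of the symbol rule may be named, and other genes where called with a log2 fold change of at least 1 in size, where they define a cell type, or where they neighbor or overlap a member. Members and gene lists were chosen with earlier results of these data known. Protein sequences were not analysed here, and 1 receptor gene counted among the members is not reported by name.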

Additional observations from a re-analysis of the deposited data

How the results depend on the processing

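Over 16 alternatives, 24 of the 33 tested members kept the direction and the side of the threshold in every alternative run, among them all called members except Ackr1 and Ackr4. Requiring a log2 fold change of at least 1 left 3 members higher and 5 lower. Leaving out 1 sample at a time gave 9 members higher in each fit and 7 to 8 lower, and 11 to 17 accessory genes higher and 3 to 8 lower, with 11 higher without any 1 of the high-glucose replicates 1, 2 or 3 and 3 lower without replicate 2 or 3 of high glucose or replicate 3 of normal glucose. Scaling by library size alone moved the median of all tested genes from 0.01 to -0.11 (log2) and gave 10 accessory genes higher and 12 lower. Samples with the same replicate number showed no shared deviation from their group means (correlations of deviations -0.0248, 0.00377 and 0.0127 for numbers 1 to 3). This does not tell whether they came from the same isolation. With the replicate block 10 members were higher and 7 lower. Under that block Ackr1 stood at -0.44 (adjusted P = 0.05004), and without a filter it was not called either (adjusted P = 0.0545). Ackr4 was also not called with RLE or upper quartile normalization, without a filter or with halved counts (adjusted P = 0.0574 to 0.106). Cxcr6 was called by the likelihood ratio test and with library size scaling (adjusted P = 0.0398 and 0.0474). The sign turned in members that were not called. Ccr10 had -0.0289 with upper quartile normalization, -0.10 with library size scaling, -0.0093 without a filter, -0.0186 with the block, and -0.20 to 0.22 with 1 sample left out (below 0 without replicate 1 of normal glucose and without replicates 1 or 3 of high glucose). Ccl5 had -0.0052 and Cxcl16 -0.0143 with library size scaling, and with 1 sample left out Ccl5 had -0.0138 (without replicate 3 of high glucose) to 0.26. In the same fits the scaffold copies of Ccl27 had -0.41 to 0.11 (ENSMUSG00000093828) and -0.13 to 0.16 (ENSMUSG00000095247), above 0 without replicate 1 of normal glucose, the latter also without replicate 3 of high glucose (0.0039), and Ccl27b had -0.61 to 0.0063, above 0 without replicate 2 of high glucose. In each case the cause was not tested. Without a filter Ccr1, which was not tested otherwise, was called lower (adjusted P = 0.0274). Low counts limit what can be said of the 31 members that were not tested and of the low ones whose intervals span both directions, such as Ccl20, Cxcl15 and Ccr9.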
